A study of Mus musculus with 4 samples.

Results

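The cytosolic ribosomal protein genes encode the protein part of the 80S ribosome. They were taken as the protein-coding genes of the mm9 annotation whose symbols are Rpl or Rps plus a number, including the stalk genes Rplp0 to Rplp2 and Rpsa, and leaving out Rps6k kinases and names marked Gm or -ps. The rule found 83 genes among 22225, of which 51 belong to the large and 32 to the small subunit. It keeps 7 paralogue copies, Rpl3l, Rpl7l1, Rpl10l, Rpl22l1, Rpl36al, Rpl39l and Rps27l. The rule rests on names and uses no measured value. The data are phospho-CREB peak lists from MC3T3-E1 cells, a mouse pre-osteoblast cell line. One group of cultures received DMSO vehicle for 1 h and the other 100 nM forskolin, an activator of adenylyl cyclase that raises cAMP, for 1 h. Each group has 2 libraries, which the labels call biological replicates, made with an antibody against CREB phosphorylated at its protein kinase A site. All cells grew in medium with serum, and the labels name no other treatment or genetic change.

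Ribosomal protein genes are among the most strongly and evenly transcribed genes of growing cells, because every ribosome needs one copy of nearly every protein. Their promoters are typically short and GC-rich, with a sharply placed start site inside a pyrimidine run, the TCT initiator. CREB binds the cAMP response element (CRE), whose palindrome TGACGTCA consists of a pair of opposed TGACG cores. Phosphorylation by protein kinase A lets CREB bind the coactivators CBP and p300, and CREB also occupies many housekeeping promoters.

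The lists held 14686 and 10180 peaks under vehicle and 25566 and 19371 under forskolin, with 1 peak width per list of 301 to 311 bp. Merged where peaks shared at least 1 bp, they formed 28335 regions, of which 8930 had a peak in all 4 libraries. A further 5187 were forskolin-only, with a peak in both forskolin and neither vehicle library, and 125 were vehicle-only, the reverse. The score of a peak is the authors' own and no source used here gives its scale, so it was used as a percentile within its list, where 100 is the highest-scoring peak. Read depth is unknown. Forskolin replicate 2 stood apart in its score steps, with 72 distinct scores below 50 against 198 to 208 in the other lists. Its part in the results was not tested. Values without it are given for some counts, among them those that moved under the rule of the later section on processing.

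The sequences at the promoter regions are shown first, because members with and without a CRE core differed in rank. All are on the gene's own strand, 5′ to 3′, in build mm9 (NCBIM37), and capitals mark a TGACG core, its reverse complement CGTCA, or the full TGACGTCA. The 5 members with the highest mean percentile over the 4 libraries each held a core at the following sites, among which only the Rpl18 site is a full CRE.
Rpl9 (chr5:65782678-65782706, minus strand): tcgctcgggtcgTGACGcgacacgcaggg
Rpl18 (chr7:52973351-52973380, plus strand): tcgcgctcatgTGACGTCAcccgtgcacca
Rpl21 (chr5:147644433-147644461, plus strand): cggtgcctcctaCGTCAcacgacgcaagg
Rpl13a (chr7:52384147-52384175, minus strand): tcgagccgtctgCGTCActtcctccgccc
Rpl23 (chr11:97643790-97643818, minus strand): ccaggccttttaCGTCAtctagctgcgac
The remaining 6 of the 7 members with a full CRE are shown for comparison with the Rpl18 site.
Rpl13 (chr8:125626215-125626244, plus strand): gcgggttcgcgTGACGTCActtccctttcg
Rpl24 (chr16:55973812-55973841, plus strand): ctccgcagtgtTGACGTCAcaccgccggct
Rpl26 (chr11:68714923-68714952, plus strand): cctccgagggaTGACGTCAggacccctcgc
Rpl27a (chr7:116662601-116662630, plus strand): gccgggagccgTGACGTCAggagcccttcc
Rps29 (chr12:70260219-70260248, minus strand): gcggcgggccgTGACGTCActcactgtgcc
Rps9 (chr7:3655575-3655604, plus strand): gcggtgcgtgaTGACGTCActacaaggcga
A further set is shown because the core runs directly into the letters cttcc, as it also does in the Rpl13 and Rpl13a sequences. These letters are part of the ETS site CCGGAAG read on the other strand. None of these genes held the whole CCGGAAG within 100 bp of its region's centre.
Rpl37a (chr1:72757801-72757829, plus strand): gagaggaggtcgCGTCActtccgctcgcc
Rps13 (chr7:123477681-123477709, minus strand): gtcggtgagtggCGTCActtcctgtgcgg
Rps18 (chr17:34092607-34092635, minus strand): ataagacttataCGTCActtccgctctct
Rps27 (chr3:90017606-90017634, minus strand): agcaacacggctCGTCActtcctgtccca
Finally, the 100 bases before the most upstream start site are shown for Rpl21, which has a core, and for 3 members without one. These are Rplp0, which ranked high, Rpl28, whose rank was higher under forskolin, and Rpl39, the lowest-ranked member.
Rpl21 (chr5:147644366-147644465, plus strand): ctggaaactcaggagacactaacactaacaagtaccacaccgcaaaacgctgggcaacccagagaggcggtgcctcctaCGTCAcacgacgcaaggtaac
Rplp0 (chr5:116009376-116009475, plus strand): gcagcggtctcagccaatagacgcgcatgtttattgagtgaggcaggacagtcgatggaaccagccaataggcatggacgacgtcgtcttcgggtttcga
Rpl28 (chr7:4744376-4744475, plus strand): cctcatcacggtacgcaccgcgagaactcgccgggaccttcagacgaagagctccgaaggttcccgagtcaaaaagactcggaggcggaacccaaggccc
Rpl39 (chrX:34625398-34625497, minus strand): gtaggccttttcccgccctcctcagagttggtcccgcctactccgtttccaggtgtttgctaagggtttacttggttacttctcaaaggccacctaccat

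Phospho-CREB peaks were found at nearly all ribosomal protein promoters, before as well as after forskolin. A region of any kind lay with its centre within 1 kb of a start site for 80 of the 83 members, against 44.5% of all protein-coding genes. A region called in all 4 libraries lay there for 76 members (91.6%), against 30.4% of all genes. The background counts every annotated gene, silent genes included, because no RNA measurement is used here. The large subunit had 45 of 51 genes with such a region and the small subunit 31 of 32. Without the paralogue copies the count was 72 of 76.

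Counted library by library, 78 and 80 members had a peak within 1 kb under vehicle and 79 and 79 under forskolin. The means were 79.0 ± 1.41 (SD, n = 2) and 79.0 ± 0 (SD, n = 2), and permuting the 4 libraries (exact, two-sided) gave p = 1. With 2 libraries against 2, the smallest p this test can give is 0.333.

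The 3 members with no region within 1 kb were all paralogue copies. Rpl3l is known from striated muscle, and Rpl10l and Rpl39l are known from the testis. The other paralogue copies, Rpl7l1, Rpl22l1, Rpl36al and Rps27l, each had a region of all 4 libraries.

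A peak was present but missing from at least 1 library at the remaining 4 members, Rpl12, Rpl35, Rps20 and Rpl7. Rpl12, a protein at the base of the ribosomal stalk, had the single vehicle-only region within 1 kb of a member (1 of 83 genes, against 0.247% of all genes), at chr2:32817239-32817561, 140 bp downstream of its start site and in an exon. The percentiles there were 86.5 in vehicle replicate 1 and 65.6 in vehicle replicate 2, with no peak in the forskolin libraries. A start site of Lrsam1 lies 33 bp from one of Rpl12, so the region may belong to either gene. Rpl12 also had a region of all 4 libraries 3547 bp from its start, where the percentiles were 93.8, 92.1, 96.2 and 95.2.

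Rpl35 and Rps20 lacked a peak in vehicle replicate 1 only. At Rpl35, which lies near the exit of the nascent peptide tunnel, the percentiles in vehicle replicate 2 and forskolin replicates 1 and 2 were 70.6, 75.1 and 73.1. At Rps20 they were 63.6, 81.7 and 80.5. At Rpl7 the peaks fell into 2 neighbouring regions, one called in the first replicate of each treatment, with percentiles of 74.3 and 72.3, and one called in the second, with percentiles of 74.5 and 53.3. Thus every library had a peak at the Rpl7 promoter, and the split follows replicate number and not treatment.

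**Figure D1:**
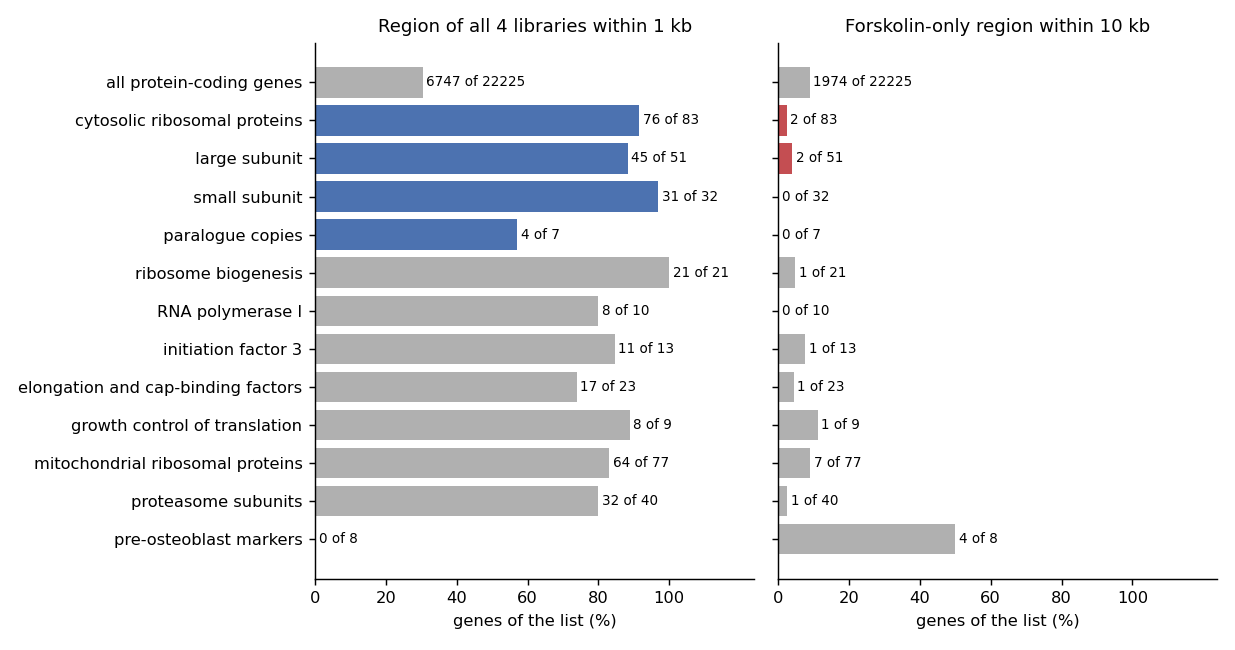
Bars give the share (%) of each gene list with a promoter region (within 1 kb) called in all 4 libraries (left) and with a forskolin-only region within 10 kb (right), with the counts printed beside them; coloured bars are the ribosomal protein genes. The bar for the 83 cytosolic ribosomal protein genes is 76 genes long on the left and 2 on the right, and that for all protein-coding genes is 6747 and 1974.

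The rank of the promoter region varied widely among members, from the very top of the lists to their lower end. Percentiles are given below in the order vehicle replicate 1, vehicle replicate 2, forskolin replicate 1 and forskolin replicate 2. The median member had percentiles of 87.0, 79.8, 87.0 and 82.0, against 76.5, 66.4, 79.7 and 74.2 for all 6747 genes with a promoter region of all 4 libraries. In all 4 lists 20 members were at or above the 90th percentile (26.3%, against 15.7% of all such genes), 11 at or above the 95th (14.5% against 8.0%) and 3 at or above the 99th (3.95% against 1.63%).

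Those 3 were Rpl9, Rpl18 and Rpl21, all of the large subunit. At Rpl9 (chr5:65782555-65782874, between Rpl9 and Lias, whose start sites lie 54 bp apart), the deposited scores were 166.1, 117.3, 322.9 and 218.9 and the percentiles 99.9, 99.8, 99.9 and 99.9. At Rpl18 (chr7:52973222-52973545, in a UTR exon; Sphk2 starts 69 bp from Rpl18), the scores were 146.2, 122.6, 266.4 and 160.4 and the percentiles 99.8, 99.8, 99.8 and 99.6. At Rpl21 (chr5:147644295-147644614, intergenic), where no other protein-coding gene starts within 1 kb, the percentiles were 99.6, 99.7, 99.7 and 99.6. The 3 promoters were thus in the top 1% of every list, whichever the treatment.

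Rpl13a and Rpl23 came next. Rpl13a, known also for a role in translational silencing outside the ribosome, had percentiles of 99.4, 98.9, 99.5 and 99.2 at chr7:52384036-52384373. Rpl23, a protein that binds Mdm2, had 99.0, 97.8, 99.3 and 99.2 at chr11:97643632-97643953.

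The 3 stalk genes, whose products recruit the elongation factors, did not rank together. Rplp0 had percentiles of 94.3, 97.0, 96.6 and 97.9, Rplp1 80.0, 72.7, 81.5 and 55.9, and Rplp2 73.7, 82.6, 83.7 and 81.1. Rplp0 was above both others in every library. Rpl3, which lies close to the peptidyl transferase centre, was high in every list at 98.1, 96.0, 98.0 and 98.2.

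Rpl5 and Rpl11, which carry the 5S rRNA into the ribosome and bind Mdm2 when ribosome assembly fails, were below the median member in every library. Their percentiles were 83.4, 72.1, 83.6 and 62.4 at Rpl5 and 81.9, 65.6, 71.3 and 75.3 at Rpl11. In the small subunit Rps2, at the mRNA entry channel, ranked highest with 97.6, 96.9, 97.7 and 97.6. Rps3, its neighbour at the channel, had 94.8, 93.1, 96.8 and 93.1.

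Rps6, the substrate of the S6 kinases, was more variable, with percentiles of 85.8, 46.6, 78.5 and 69.0. Rps19 and Rps14, whose human counterparts are known from Diamond-Blackfan anaemia and the 5q- syndrome, were steady, with 87.3, 85.6, 85.7 and 86.0 at Rps19 and 88.4, 83.8, 91.9 and 88.2 at Rps14. Rps27a, made as a fusion with ubiquitin, had 53.8, 75.4, 78.5 and 67.5.

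At the lower end stood Rpl39, Rpl17, Rpl36al, Rpl36a and Rps23. Rpl39, a small protein in the wall of the exit tunnel, had percentiles of 3.49, 8.70, 62.9 and 27.2, so that both vehicle libraries were lower than both forskolin libraries. Rpl36al, a copy of Rpl36a, had 68.8, 48.7, 65.8 and 12.4, and Rpl36a itself had 70.4, 21.2, 68.1 and 36.4. Rpl17 had 57.3, 34.4, 40.5 and 31.9, and Rps23, a protein of the decoding site, 58.3, 18.4, 68.6 and 53.3. The range over the 4 percentiles had a median of 44.4 points in the 20 lowest members against 2.25 in the 20 highest. Members were sorted by the mean of the same 4 percentiles. A mean near the upper end of the scale allows only a small range. The contrast therefore cannot show that the libraries differed more at members of low rank.

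**Figure D2:**
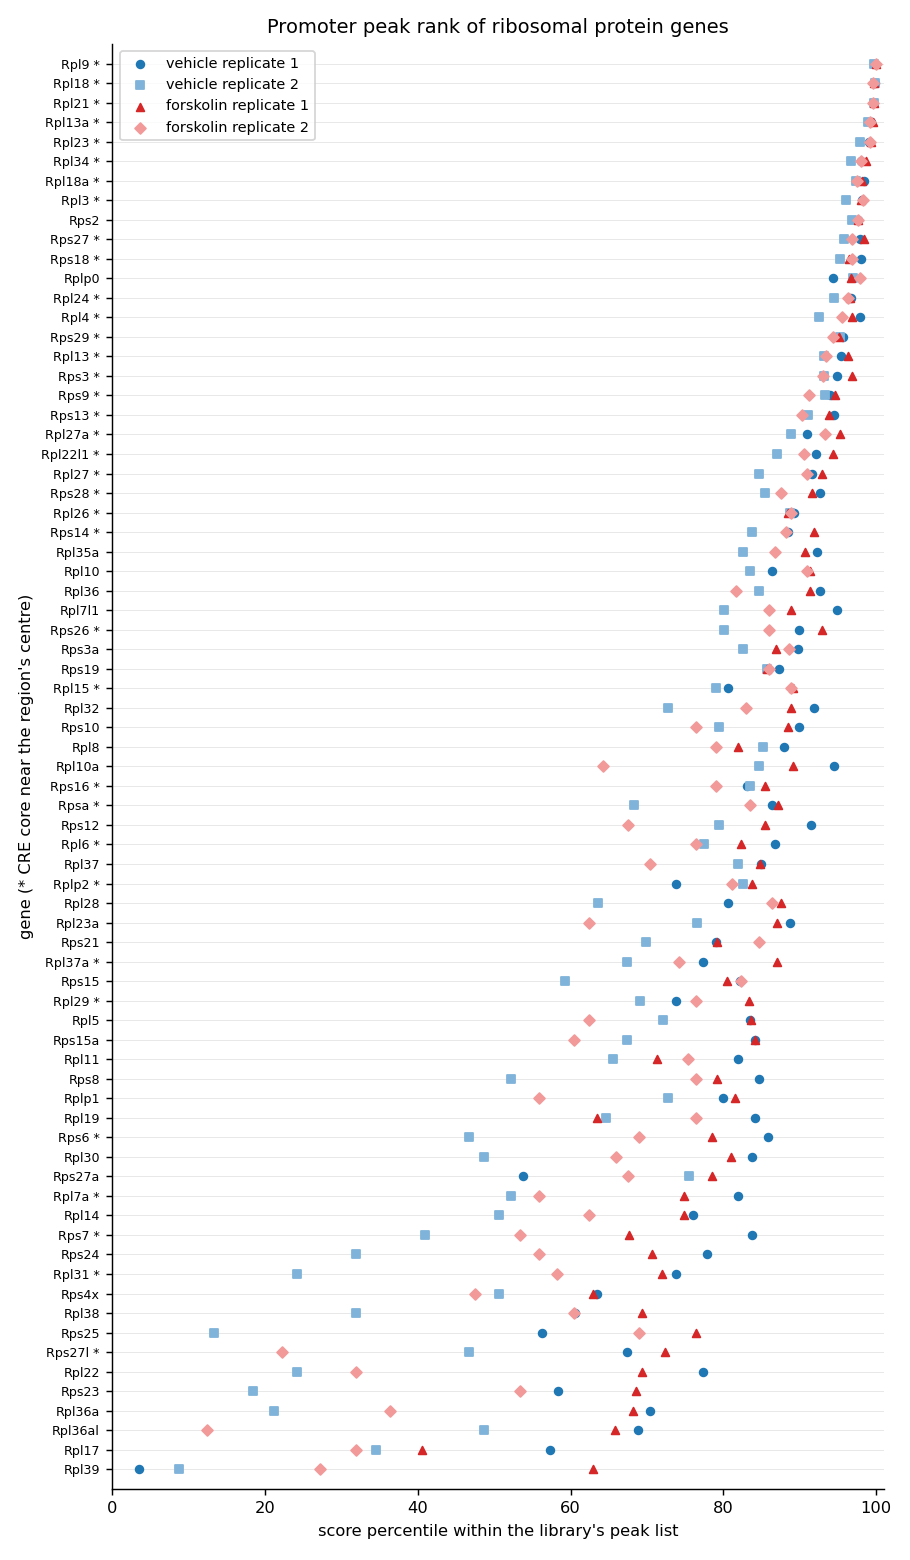
Each line is 1 of 73 members with a promoter region of all 4 libraries, ordered by mean percentile, with 1 marker per library on the x axis (score percentile within that library's list, 0 to 100); an asterisk marks a CRE core within 100 bp of the region's centre. Rpl9, Rpl18 and Rpl21 stand at the top with all markers above 99, and asterisks crowd the upper part of the plot.

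Peaks sat close to the start sites. The distance from the region's centre to the nearest annotated start site had a median of 52.5 bp over the 76 members and of 74 bp over all genes with such a region. The centre lay within 100 bp of a start site for 60 members (78.9%, against 59.5% of all such genes) and within 150 bp for 71 (93.4% against 72.8%). Members have more annotated start sites than other genes, with a median of 4 against 3 for all genes with a promoter region, and more start sites shorten this distance. Measured from the most upstream start alone, the medians were 74.5 bp and 106 bp.

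The farthest member was Rps25, 366 bp upstream of its start site, and the 1 kb limit did not cut through a run of members. Just inside it lay regions of forskolin replicate 2 alone at Rpl38 (518 bp) and Rpl39 (641 bp), and just outside it a second region of all 4 libraries at Rps18 (1119 bp). By annotation 30 of the 76 promoter regions had their centre in a UTR exon, 26 between genes, 16 in an intron and 4 in another exon.

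**Figure D3:**
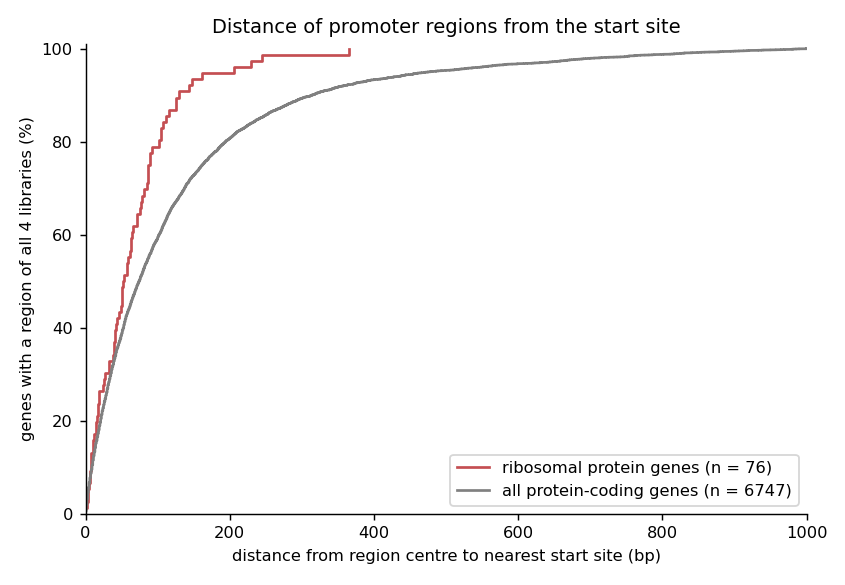
The cumulative share of genes (%, y axis) is plotted against the distance (bp, x axis) from the centre of the promoter region to the nearest start site, for the 76 ribosomal protein genes and all 6747 genes with a region of all 4 libraries, members included. The members' curve has passed 93.4% at 150 bp, where the curve of all genes stands at 72.8%, and ends at 366 bp.

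Some of these promoters serve another gene as well. At 12 of the 76 members another protein-coding gene started within 1 kb of the centre of the ranked region, among them Lias at Rpl9, Sphk2 at Rpl18, Med22 at Rpl7a, Rab13 at Rps27 and Ndufa7 at Rps28. Counting from the region, not from every start site of the member, was chosen after seeing the data. These 12 had median percentiles of 92.4, 84.0, 91.1 and 88.2, and the other 64 had 86.5, 79.4, 86.3 and 80.1. Over all genes the medians were 80.3, 70.6, 82.8 and 77.4 with and 75.4, 63.6, 78.5 and 73.1 without such a neighbour. A core stood in 8 of the 12 and in 29 of the 64. A peak in such a promoter cannot be assigned to one of the 2 genes.

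The CRE core went with a higher rank. The letters TGACG, on either strand, stood within 100 bp of the region's centre at 37 of the 76 members (48.7%), close to the 43.4% of all 6747 genes. The full TGACGTCA, which contains the core on both strands, stood at 7 (9.21% against 7.23%). Both shares were close to those of all occupied promoters. A match is a run of letters and no measured binding site.

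Members with a core had median percentiles of 92.6, 88.8, 94.3 and 90.9, and the 39 members without one 83.8, 69.8, 81.5 and 69.0. The direction was the same in every library. It held for all genes as well, with 87.1, 81.9, 90.1 and 87.9 for the 2928 with a core and 68.8, 55.1, 72.3 and 64.3 for the 3819 without. Of the 20 highest members 18 had a core, and of the 20 lowest 5 had one. Rps2 and Rplp0 were the exceptions at the top.

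The 7 members with a full CRE, whose sites are shown above, were all high, with mean percentiles from 88.8 to 99.8. Rpl24 had percentiles of 96.7, 94.4, 96.6 and 96.3. Rps29 had 95.6, 95.3, 95.1 and 94.4, and Rps9 had 93.9, 93.3, 94.5 and 91.2. Rpl26, the lowest of the 7, had 89.2, 88.7, 88.5 and 88.9. Rpl9, Rpl21, Rpl13a and Rpl23, which hold 1 or more cores but no full CRE, had higher mean percentiles than every member with a full CRE but Rpl18.

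Peak centres also lay closer together where a core was present. The distance between the outermost of the 4 libraries' peak centres had a median of 38 bp at members with a core and 109 bp at those without, against 40 and 78 bp over all genes. The core lay a median of 18 bp from the region's centre (23 bp over all genes). Only cores within 100 bp of the centre were searched, and the copy nearest the centre was taken. A small distance is thus partly built in. Relative to the start site the core's median position was −22 bp, with a range from −239 bp at Rpl4 to 94 bp downstream at Rps7. Upstream of the start lay 27 of the 37 cores, a share close to that over all genes (2177 of 2928). Of the 37, 22 lay within 100 bp upstream of the start (59.5%, against 46.5% over all genes).

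Among the 30 members with a core and no full CRE, 20 had it as CGTCA on the gene strand (66.7%, against 47.0% of all such genes), as in the Rpl21, Rpl13a and Rpl23 sequences. The form in which CGTCA runs into cttcc was present at 8 members, among them Rpl13, Rpl13a, Rpl24, Rpl37a, Rps13, Rps18 and Rps27 (10.5%, against 3.08% of all genes). This form was chosen after the sequences had been read, so its count is only a description. The 8 members had a median mean percentile of 95.6, and the 208 genes with it in all had 92.5.

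**Figure D4:**
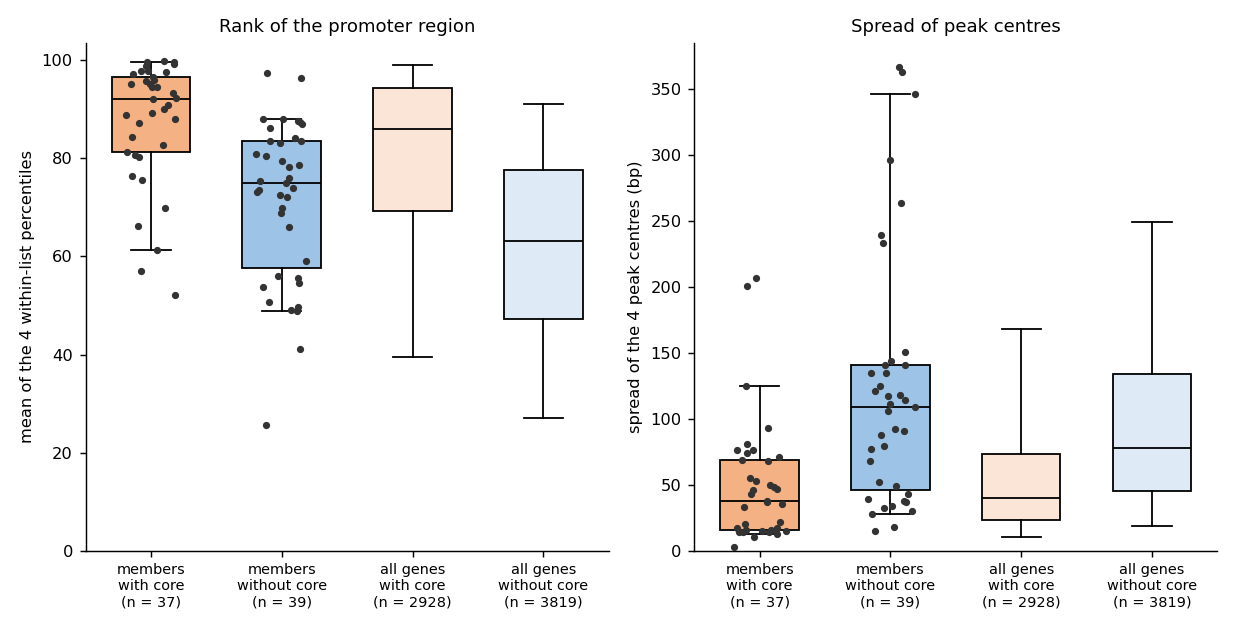
Left, the mean of a promoter region's 4 within-list percentiles; right, the spread (bp) of its 4 peak centres, for members and for all genes (members included) with and without a CRE core. Boxes span the quartiles around the median line, whiskers run from the 5th to the 95th percentile, and points are single members; the median rank is 92.1 for members with a core and 75.0 for those without.

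Other short motifs were searched in the same 201 bp windows on both strands. The ETS site CCGGAAG stood at 21 members (27.6%, against 21.4% of all genes), the YY1 site AAGATGG at 8 (10.5% against 7.86%) and the GC box GGGCGG at 41 (53.9% against 51.8%). The NRF1 palindrome stood at Rpl10a and Rpl37a only, 2 members (2.63% against 1.33%). The AP-1 site TGAGTCA stood at 1 member, Rpl9 (1.32% against 2.16%), and CCAAT at 18 (23.7% against 34.9%). Among these 6 motifs CCAAT showed the widest gap, with members below the background.

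Core promoter letters set the members further apart from other genes. TATAAA stood at 8 members (10.5%, against 2.68%), among them Rpl22l1, Rpl36a, Rpl39, Rplp0, Rps2, Rps14 and Rps28. The TCT initiator was searched as CTTTTC or CTCTTTC on the gene strand within 50 bp of the start site. It stood at 21 members (27.6%, against 3.79%). These 21 had a median mean percentile of 76.1 and the other 55 members 86.2. Over all genes the lower rank was absent, with medians of 73.1 for the 256 with it and 72.2 for the 6491 without. A CRE core stood at 7 of the 21, against 37 of all 76 members.

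The rank of most members was lower under forskolin than under vehicle. For this comparison the score was ranked, in each library, only among the 8930 regions called in all 4 libraries, so that every library has the same number of ranks. This common-set percentile had medians over the 76 members of 79.1 and 77.4 under vehicle and 69.4 and 67.2 under forskolin. The group means were 78.2 ± 1.20 (SD, n = 2) and 68.3 ± 1.58 (SD, n = 2). Both forskolin libraries lay below both vehicle libraries, a difference of −9.92, and the exact two-sided permutation test gave p = 0.333, the smallest it can give.

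Promoters of all genes moved the same way. Over all 6747 genes the medians were 62.8 and 62.8 under vehicle and 54.5 and 55.3 under forskolin, a difference of −7.85. A percentile is relative, so a lower rank says only that other regions of the common set scored higher in comparison. It does not show less phospho-CREB at these promoters, whose deposited scores cannot be compared between lists. Ranked among the 5860 promoter regions alone, the members' medians were 70.8, 68.9, 66.1 and 63.3, a difference of −5.19. The medians of all genes were between 51.0 and 51.8. This ranking holds them near the middle of the scale in every library, so they could not have moved with treatment.

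Gene by gene, 41 members ranked lower in both forskolin than in both vehicle libraries (53.9%, against 38.1% of all genes), 3 ranked higher (3.95%, against 7.74%), and the libraries of the other 32 overlapped. Ranked among promoter regions alone, 23 ranked lower (30.3%, against 19.8%) and 8 higher (10.5%, against 17%). The mean difference was negative for 65 of the 76 (85.5%, against 72.8% of all genes) and ran from −30.6 to 25.0. With a core, 19 of 37 members ranked lower (51.4%, against 36.2% of all genes with a core) and 0 higher (against 9.67%). Without one, 22 of 39 ranked lower (56.4% against 39.6%) and 3 higher (7.69% against 6.26%). Leaving out 1 library at a time gave 43 to 63 members lower (63 without vehicle replicate 2) and 5 to 14 higher (14 without vehicle replicate 1, 7 without vehicle replicate 2 or forskolin replicate 1), as fewer libraries overlap less.

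Among the largest falls were those at Rpl36al, Rpl10a, Rps12 and Rpl19. At Rpl10a (chr17:28465235-28465800, in a UTR exon), a protein of the L1 stalk, the deposited scores were 42.7, 22.2, 48.2 and 18.6. The common-set percentiles were 91.0, 82.8, 73.9 and 41.5, a difference of −29.2. At Rpl36al they were 51.6, 43.8, 30.4 and 3.77, a difference of −30.6. Each of these was lowest in forskolin replicate 2.

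Rps12, of the small subunit, had common-set percentiles of 86.1, 77.0, 66.3 and 45.6, a difference of −25.6. Rpl19, whose protein reaches across to the small subunit, had 74.4, 60.9, 26.6 and 58.5, a difference of −25.1, and was lowest in forskolin replicate 1. The outermost of the 4 peak centres lay 367 bp apart at Rpl19, more than a peak's width, and 264 bp apart at Rpl10a. The ranks there can thus belong to different positions. At Rpl36al and Rps12 the spread was 121 and 30 bp. None of these genes had a CRE core.

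The 3 members that ranked higher were Rps25, Rpl39 and Rpl28, and they had no core either. At Rps25 (chr9:44215218-44215644, in a UTR exon, with Trappc4 starting within 1 kb), a protein known for its part in translation from internal entry sites, the deposited scores were 12.3, 7.0, 27.9 and 20.7. Its common-set percentiles were 35.1, 10.9, 48.4 and 47.6, a difference of 25.0. At Rpl39 (chrX:34625052-34625592) they were 0.963, 7.05, 25.9 and 9.93, a difference of 13.9. At Rpl28 (chr7:4744376-4744724) they were 69.0, 59.8, 70.6 and 74.5, a difference of 8.16. At Rpl39 and Rpl28 the nearest vehicle and forskolin libraries were only a few percentile points apart.

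The highest members, close to the upper end of the scale, hardly moved. The differences of Rpl9, Rpl18, Rpl21, Rpl13a and Rpl23 were 0.011, −0.47, −0.33, −0.40 and 0.17. Among members with a full CRE they ran from −9.31 at Rpl26 to 0.77 at Rpl27a, and 6 of the 7 ranked lower in both forskolin libraries (85.7%, against 30.3% of the 488 genes with a full CRE) and 0 higher (against 12.7%).

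**Figure D5:**
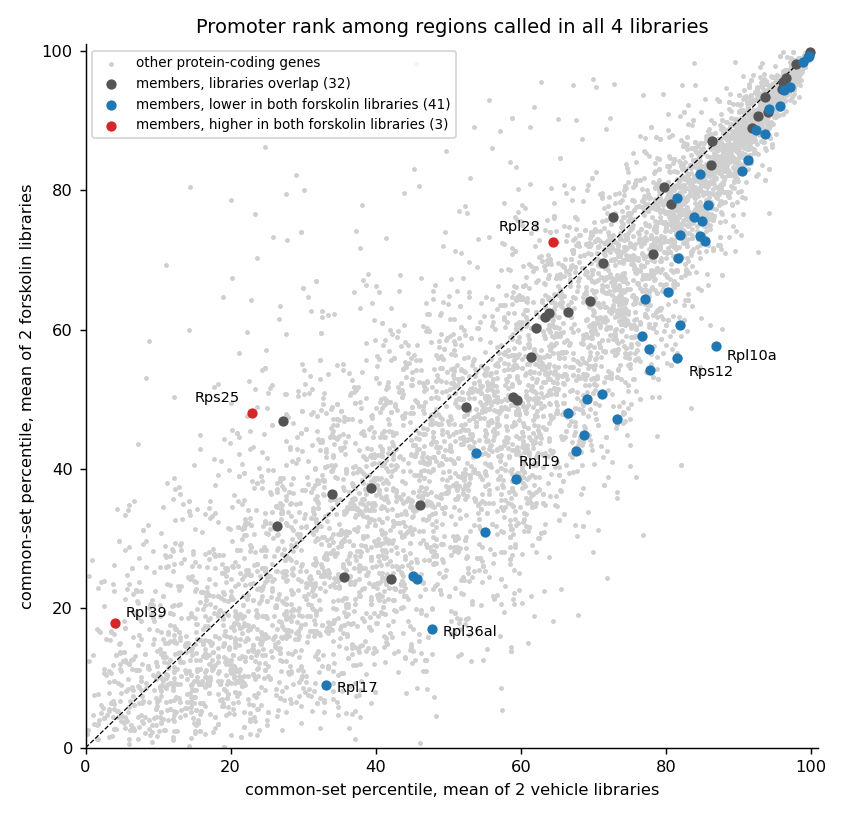
Each point is the promoter region of 1 gene, with its common-set percentile averaged over the 2 vehicle libraries (x axis) and over the 2 forskolin libraries (y axis); grey points are other protein-coding genes, coloured and black points the 76 members, and the dashed line marks equal rank. Below the line lie 65 members, of which 41 have both forskolin libraries under both vehicle libraries, and 3 members lie above it with both forskolin libraries higher.

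Forskolin-only regions were few near the members. Within 1 kb of a start site 0 of 83 members had a forskolin-only region, against 3.11% of all genes, and within 10 kb 2 members had one, against 8.88%. Among 83 genes a share of 3.11% is only a few genes. A peak that overlaps a region of all 4 libraries cannot count as forskolin-only. Such a region lay within 1 kb of 76 members (91.6%, against 30.4% of all genes). Leaving out vehicle replicate 2 gave 4 members within 1 kb, and leaving out forskolin replicate 1 gave 3. Within 10 kb the counts were between 4 and 9 when any 1 library was left out, since a forskolin-only call is then easier to meet. Vehicle-only regions lay within 10 kb of 1 member, the Rpl12 region described above, against 0.414% of all genes.

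Both forskolin-only regions within 10 kb lay nearer to another gene. The one at Rpl23a (chr11:77990843-77991208, 4107 bp downstream of its start) was 607 bp from the start of Tlcd1 and had percentiles of 74.6 and 60.4 in forskolin replicates 1 and 2. The one at Rpl29 (chr9:106340508-106340929, 8848 bp downstream) was 151 bp from the start of Acy1 and had percentiles of 38.3 and 1.53. The promoters of Rpl23a and Rpl29 themselves had regions of all 4 libraries.

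Within 100 kb, 45 members had a forskolin-only region (54.2%, against 39.7% of all genes), at most 4 per gene. With all lists cut to the 10180 highest peaks, 20 members did. The share of all genes was not computed for the cut lists, so this count cannot be set against the 39.7%. Members lie in gene-dense surroundings, with a median of 5 other protein-coding genes within 100 kb against 3 for all genes, and the part of this in the count was not tested. Of the 76 pairs of a member and such a region, involving 74 regions, the member was the nearest gene in 6. These were at Rpl17, Rpl30, Rpl37a, Rps3a and, with 2 regions, Rps12. The highest-ranked was 13357 bp downstream of the Rpl37a start (chr1:72771034-72771349, intergenic), with percentiles of 91.8 and 89.2.

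Other genes of ribosome production and translation, from lists drawn up alongside the rule, were counted in the same way. Fau and Gnb2l1 (the Rack1 gene), ribosome parts whose symbols fall outside the rule, both had a promoter region shared by the 4 libraries. So did 21 of 21 ribosome biogenesis genes, 8 of 10 RNA polymerase I genes (Taf1b and Taf1c did not), 11 of 13 eIF3 subunits (Eif3g and Eif3j did not) and 8 of 9 regulators of growth (Myc did not). Elongation and cap-binding factors had 17 of 23, and Eef1a1, Eef1g, Eif4g1, Eif4g2, Eif4h and Pabpc1 did not. Over all protein-coding genes the share with such a promoter region was 30.4%. None of these lists had a gene with a forskolin-only region within 1 kb, against 3.11% of all genes. In lists this short that share is only a few genes, and a peak overlapping a region of all 4 libraries cannot count as forskolin-only.

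Mitochondrial ribosomal proteins, which serve the ribosome inside mitochondria and have nuclear genes of their own, had 64 of 77 (83.1%), with median percentiles of 81.6, 68.6, 82.8 and 70.4. Proteasome subunits, another large and evenly expressed complex, had 32 of 40 (80.0%), with 77.0, 63.9, 78.6 and 73.1. The cytosolic ribosomal proteins were above both in each library at 87.0, 79.8, 87.0 and 82.0, and these differences between lists were not tested. Of 8 pre-osteoblast marker genes 0 had a promoter region called in all 4 libraries, against 30.4% of all genes. Within 10 kb of a start site 4 of the 8 had a forskolin-only region, against 8.88% of all genes. Short marker lists for fat, cartilage, muscle and blood lineages likewise had 0 promoter regions of all 4 libraries. Their forskolin-only counts within 10 kb were 1 of 4 for fat, 1 of 3 for cartilage, 1 of 3 for muscle and 0 of 3 for blood. These marker counts are occupancy and say nothing on the identity of the cells.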

How the data were processed

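Per the labels, phospho-CREB chromatin immunoprecipitation libraries were made from MC3T3-E1 cells after 1 h of vehicle or forskolin, with 2 biological replicates each. The labels also name an input library, deposited elsewhere, which was not used here, and 2 sequencer models without saying which library ran on which. Bowtie, HOMER and build mm9 are named in the submitters' processing notes without versions, and the thresholds used to call peaks are not stated there or in the labels. The authors deposited 1 peak list per library with a score per peak, and low scores fall on steps. The scale of the score is not stated, so it was only ranked, and no count model was fitted.

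Peaks were merged where they shared at least 1 bp. Distance was measured between the centre of a region and the closest transcript start in GENCODE M1 (NCBIM37, 21 chromosomes). A gene with several regions of all 4 libraries within 1 kb was represented by the one of highest mean percentile. Motifs were searched within 100 bp of the centre. Sequences were read from NCBIM37, and 2 members on 1 chromosome are given without sequence. Single values per library were compared by an exact two-sided permutation test. Counts of members are given beside those over all protein-coding genes, without a test.

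Genes were named by a rule: the 5 highest and 5 lowest mean percentiles, members without a region within 1 kb, those with a forskolin-only or vehicle-only region within 10 kb, the 3 ranked higher, the 5 largest falls among those ranked lower, and those with a full CRE. Others are named for their role or where a small count is given. Some genes that the rules pick are not reported here. Members and lists were chosen with earlier results of these data known. The steps were tested on simulated data, which returned 4000 of 4000 simulated regions in their class and 300 of 300 simulated gene links. Python 3.11.15, numpy 2.4.6, pandas 2.3.3, pysam 0.24.0 and matplotlib 3.10.9 were used.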

Additional observations from a re-analysis of the deposited data

How the results depend on the processing

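Of 143 values recomputed under other settings, 109 stayed, 34 moved and 0 changed sign. A tested difference counted as staying where it kept its direction, or remained 0 where it was 0 as reported. A count stayed within 1.5 times and a median percentile within 1 SD. By this rule only the difference in common-set percentile could be found to change sign. The count of members with a promoter region of all 4 libraries stayed (60 to 78). The difference in median common-set percentile was negative throughout but varied in size from −12.6 to −5.19, the latter when ranked among promoter regions alone. The exact permutation test can give no p below 0.333, so it could not decide on this difference under any setting. Requiring at least 50% overlap of the shorter peak gave 1 member with a forskolin-only region within 1 kb and 2 with a vehicle-only region within 10 kb. Joining peaks within 500 bp gave 1 with a forskolin-only region within 10 kb. Cutting all lists to the 10180 highest peaks gave 1 member with a forskolin-only region within 10 kb, 20 within 100 kb and 6 with a vehicle-only region within 10 kb, a mean difference of −3.5 members with a peak per library (exact permutation p = 0.667) and a median within-list percentile of 77.0 (83.9 as reported). Keeping the top 50% of each list gave 1 member with a forskolin-only region within 1 kb, a difference of 4.5 members (exact permutation p = 0.667) and a median of 74.9. Taking 1 start site per gene, or leaving out the 15 members with another gene's start within 1 kb of any of their own, gave a difference of 1 member in each case, and the latter left 0 members with a vehicle-only region. The cause was not tested. Shares of all genes were not recomputed under these settings. Ranking among promoter regions alone, chosen after seeing the data, gave 8 members higher and 23 lower. Leaving out 1 library at a time gave 0 to 4 members with a forskolin-only region within 1 kb (4 without vehicle replicate 2, 3 without forskolin replicate 1, 1 without forskolin replicate 2). It gave 4 to 9 within 10 kb (9 without forskolin replicate 1, 7 without vehicle replicate 2 or forskolin replicate 2, 4 without vehicle replicate 1). Vehicle-only regions within 10 kb were found at 2 to 6 members (6 without vehicle replicate 2, 4 without forskolin replicate 1, 2 without either other library). The difference in members with a peak ran from −1 to 1. Members ranked higher numbered 5 to 14 (14 without vehicle replicate 1, 7 without vehicle replicate 2 or forskolin replicate 1, 5 without forskolin replicate 2) and lower 43 to 63 (63 without vehicle replicate 2), since fewer libraries overlap less. Same-numbered libraries deviated together with a correlation of 0.133 in only 2 pairs, so the numbers were not taken as pairs. With the replicate number as a block the difference in common-set percentile was −9.92 (exact sign-flip p = 0.5, the smallest it can give) and that in members with a peak 0 (p = 1, exact). Read depth is unknown and limits all absent calls.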

Other observations

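The annotation also holds 55 protein-coding models named as ribosomal protein pseudogenes (symbols ending in -ps and a number), which were not counted as members. A region of any class lay within 1 kb of a start site for 1 of them, and a region of all 4 libraries for 0. Over all protein-coding genes the corresponding shares were 44.5% and 30.4%. The 1 region near a model was forskolin-only (1.82% of the models, against 3.11% of all genes). Within 10 kb, 12 of the 55 had a region of some class (21.8%, against 55.2% of all genes). A forskolin-only region lay there for 3 (5.45%, against 8.88%), so neither forskolin-only share was above that of all genes. Of the 83 ribosomal protein genes, 80 had a region of some class within 1 kb.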
